A study of Mus musculus with 5 samples.

Results

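The genes that carry new secretory proteins into the endoplasmic reticulum (ER) and on to the Golgi were followed as a list of 48 named genes. The list was drawn up by gene name with earlier results of these data known, and no threshold on measured values entered the rule. They fall into 6 groups by role: 16 genes of the translocon and its targeting machinery, 5 of signal peptidase, 7 of N-glycosylation, 10 of the COPII coat, 7 cargo receptors and 3 KDEL receptors. Of the 48 genes, 46 were measured, by 52 probe sets, among 19938 genes in all. Sec61g was named only on probe sets that also carry the symbols of other genes, and no probe set was listed under Kdelr2 in the annotation used here, so neither was analysed here. RNA came from whole pancreas at postnatal day 1, on 1 Mouse Gene 1.0 ST array per mouse. The 2 control mice are labelled as not recombined, with no further allele given, and the 3 Pdx1cKO mice carry Pdx1loxP alleles deleted by Elastase-Cre. Elastase-Cre acts in exocrine cells, so endocrine cells, the proximal ducts, mesenchyme, vessels and blood in the same sample kept Pdx1. The labels name each sample as a separate mouse only by number, so p values measure the spread between these samples.

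Proteins bound for secretion are recognised by the signal recognition particle as they leave the ribosome, handed to its receptor on the ER and threaded through the Sec61 channel, where signal peptidase removes the signal peptide and oligosaccharyltransferase adds sugar chains. Folded cargo is then packed, with the help of cargo receptors, into vesicles formed by the COPII coat, and KDEL receptors return escaped ER proteins from the Golgi. Acinar cells of the exocrine pancreas make and secrete digestive enzymes in very large amounts and are textbook cells for this pathway, which every nucleated cell uses.

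The arrays differed in tissue make-up, and these values touch every result that follows. Pdx1, the targeted gene, stood at intensities of 67.9 and 112.7 in control mice against 48.4, 48.4 and 42.9 in Pdx1cKO mice 1, 2 and 3, with all 3 below both controls. All 16 measured digestive enzymes were lower in every Pdx1cKO mouse, and their median intensity was 9224 and 5891 in control mice against 1017, 1360 and 2190 in the Pdx1cKO mice. The 10 liver markers had a median intensity of 201 and 209 in control mice against 2100, 2874 and 617 in the Pdx1cKO mice, with 9 of 10 above both controls in every Pdx1cKO mouse. All 9 granulocyte and all 4 measured erythroid markers were also above both controls in each Pdx1cKO mouse. All stomach markers but Cblif were highest in control 2. The median over the 10 markers was 978 there, against 48.8 in control 1 and 60.3 to 66.7 in Pdx1cKO. Of these, Cblif, Ctse, Gkn3 and Pgc were also higher in each Pdx1cKO mouse than in control 1, Ctse at 309, 408 and 183 against 75.5. Cblif was at 123 in control 2 against 123, 123 and 189 in Pdx1cKO mice 1, 2 and 3. All 6 islet hormones were below both controls in every Pdx1cKO mouse, with a median log2 fold change of -0.98, and the 5 measured duct markers had a median of -0.66, with Muc1 at -2.01 and Sox9 at -0.66. Mesenchyme markers had a median of 2534 and 1681 in control mice against 2620, 2396 and 2798 in the Pdx1cKO mice. Xist was at 622 and 349 in Pdx1cKO mice 1 and 2 and at 33.5 to 53.4 in the other arrays, so the sexes were not balanced. Liver, stomach and islet cells also secrete proteins through this pathway, and their part in the values below was not tested.

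While the enzymes had a median log2 fold change of -2.30, the secretory machinery had far smaller values. The median log2 fold change of the 46 members, Pdx1cKO minus control, was -0.035, and 36 of the 46 lay within 0.25 log2 of no difference, as did 16537 of all 19938 genes. Their median absolute log2 fold change was 0.139, against 0.073 over all genes. Of the members, 45 lay above the median level of all genes, and the 9969 genes above that level had a median absolute value of 0.117. A single member, the cargo receptor Tmed6, differed by 2-fold or more, at a log2 fold change of -2.66, as did 2.26% of all genes. In whole tissue, fewer acinar cells and less RNA per cell cannot be told apart. No member passed limma's test at an adjusted p of 0.05 over all genes, and 0% of the 19938 genes did. At an unadjusted limma p under 0.05, 8 members (17.4%) were lower, against 5.04% of all genes, and 2 members (4.35%) were higher, against 5.29%. Every Pdx1cKO value lay below both controls in 12 members (26.1%), as in 11.7% of all genes, and above both in 5 members (10.9%), as in 12% of all genes. Among genes above the median level, the shares were 5.13% lower, 8.4% higher, 10.3% below both controls and 18.3% above both. With 2 mice against 3, an exact permutation test cannot give a two-sided p below 0.1. The controls differed from each other by more than the groups did in 29 of the 46 members and in 11928 of all 19938 genes. The 8 lower members numbered 4 without Pdx1cKO mouse 1, 5 without Pdx1cKO mouse 2, 14 without control 2, 1 with array weights and 2 with the replicate number as a block, while the share of all genes called lower was 3.20%, 3.46%, 18.5%, 1.96% and 3.03%. The 12 members below both controls numbered 20 after quantile normalization, and the share of all genes was not counted for that setting. The 5 members above both controls were Sec11a, Sec23a, Sec24d, Lman1 and Kdelr3, and with each array centred on its median they were Lman1 and Kdelr3 alone. The share of all genes was not counted for that setting either.

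**Figure D1:**
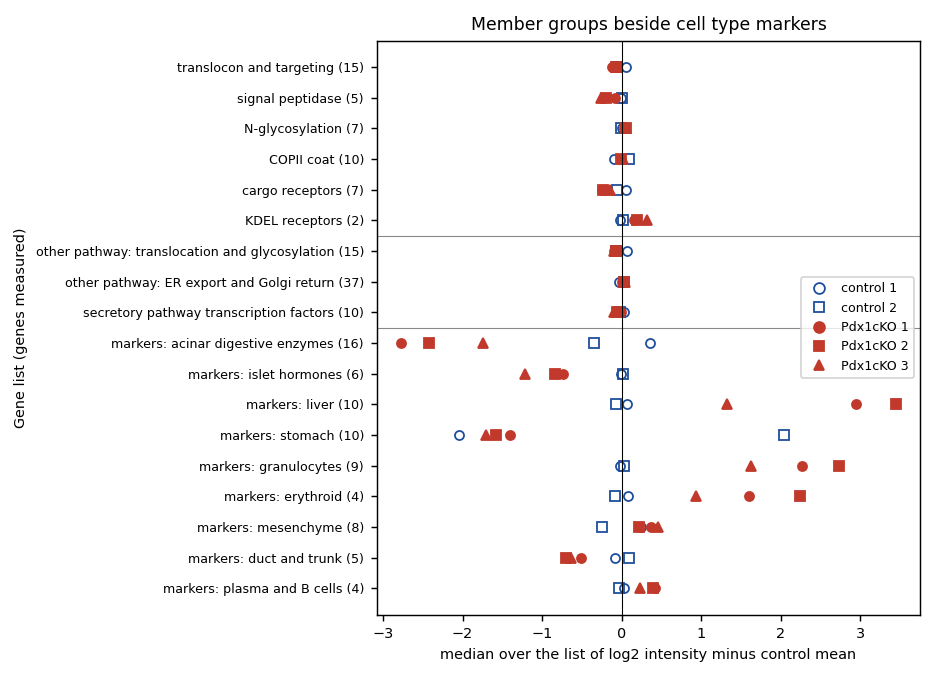
Per-array median, over the genes of each list, of log2 intensity relative to the control mean, in all 5 arrays (open blue, control; filled red, Pdx1cKO; the symbol gives the mouse number), with the number of genes measured in brackets. The 6 member groups lie between -0.262 and 0.319 in the Pdx1cKO mice, while the digestive enzymes lie between -2.77 and -1.75 and the liver markers between 1.33 and 3.45.

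A short sequence that the choice of genes had not used recurred in the members' promoters. It was looked for because XBP1 and the CREB3 family, transcription factors known for building secretory capacity, bind elements with an ACGTG core. Of 38 members with a promoter in the RefSeq table (GRCm38.p6, 250 bases before to 50 after the transcription start), 14 (36.8%) held ACGTGGC on either strand, the core of the Golgi apparatus stress response element (GASE). The share was 2.95% of all 27025 tabulated genes, 4.80% of measured genes above the median level and 18.2% (8 of 44) of other genes of the pathway that are not members. By group it was 6 of 10 for the COPII coat, 4 of 12 for translocon and targeting, 2 of 5 for cargo receptors, 1 of 3 for signal peptidase, 1 of 2 for KDEL receptors and 0 of 6 for N-glycosylation. TGACGTGG, the core of the unfolded protein response element (UPRE), stood in 3 members (7.89%), Sec24d, Sec23a and Kdelr3, against 0.714% of all genes and 11.4% (5 of 44) of the other pathway genes. In each of the 3 it overlapped the GASE core. Both cores hold ACGTGG, so any UPRE core followed by C is also a GASE match, and the overlap is largely set by the definitions. No member window held the full ER stress element (CCAAT, 9 bases, CCACG) or its second form (ATTGG, 1 base, CCACG), which stood in 0.137% and 0.0444% of all genes and each in 1 of the 44 other pathway genes. A match is a description of letters and not a bound site, and base composition was not compared.

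The sites below are shown because the 3 with a UPRE core belong to members whose 3 Pdx1cKO values all lay above both controls, and the others give an example from each further group that has a match, with Sec13 and Sec31a as the pair that forms the outer coat. Each is 30 bases of the gene's own strand, 5′ to 3′, with the matched core in capitals (read on the opposite strand where it appears as CCACGTCA or GCCACGT).
Sec24d, chr3:123267459-123267488, plus strand: gcccgggcgccTGACGTGGcactagcaacc
Sec23a, chr12:59011993-59012022, minus strand: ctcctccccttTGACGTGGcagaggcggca
Kdelr3, chr15:79516367-79516396, plus strand: tggccgccccgCCACGTCAccgcgcggcca
Sec13, chr6:113740666-113740695, minus strand: cgttttgagctGCCACGTccgaggccgtgg
Sec31a, chr5:100416204-100416233, minus strand: gggctgcggctGCCACGTtggagcggagcg
Ssr1, chr13:37994217-37994246, minus strand: ggcgcttagagGCCACGTcgacggtggcgg
Spcs1, chr14:31001709-31001738, minus strand: gctctgcagcaGCCACGTagggccacaacc
Tmed3, chr9:89705226-89705255, minus strand: tttctccggagACGTGGCagacactaagtg
The cores of Sec24d and Kdelr3 began 26 and 30 bases before the start, and that of Sec23a began 6 bases after it. Measured members with a GASE core had a median log2 fold change of -0.001, 7 with a positive and 7 with a negative value, and the 23 without one had a median of -0.051. The 3 with a UPRE core had log2 fold changes of 0.14 (Sec24d), 0.35 (Sec23a) and 0.45 (Kdelr3), against a median of -0.052 in the 34 measured members without it. With each array centred on its median, Kdelr3 was still above both controls in every Pdx1cKO mouse, and Sec23a and Sec24d were not. Without control 1 the Sec23a log2 fold change was 0.024. Fold changes of the other pathway genes with a UPRE core were not summarised. No test was made of the differences between members with and without a core.

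**Figure D2:**
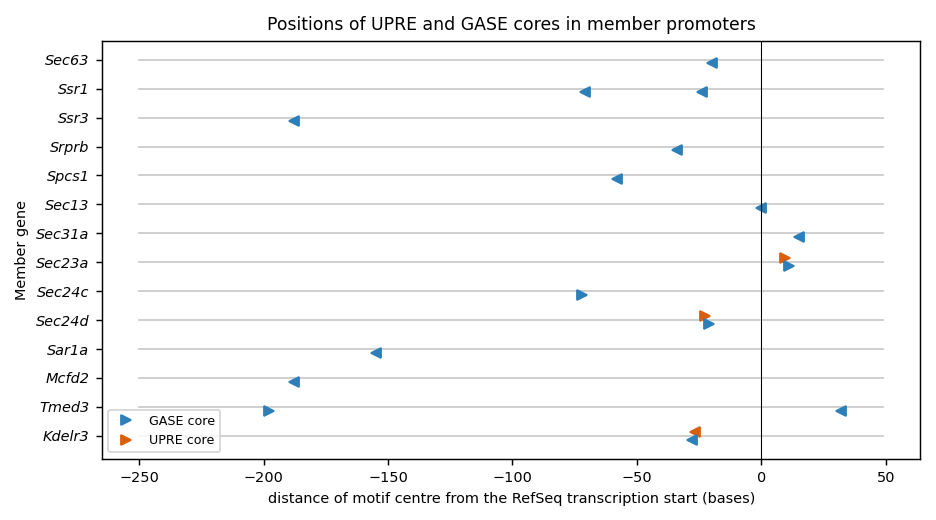
Position of each GASE core (blue) and UPRE core (orange) in the promoter windows of the 14 members that hold one, as the distance in bases of the core's centre from the RefSeq start, with the arrow pointing along the strand that carries it. Cores of 9 of the 14 members lie within 50 bases of the start. In Sec23a, Sec24d and Kdelr3 both cores, which share ACGTGG by definition, overlap.

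Of the 15 measured genes of targeting and translocation, 3 (20%) were lower at an unadjusted limma p under 0.05, against 5.04% of all genes. None was higher, against 5.29% of all genes, and the median log2 fold change was -0.10. Srpr encodes the alpha subunit of the signal recognition particle receptor, which docks the ribosome at the ER. Its intensity was 503 and 409 in control mice against 333, 323 and 314 in Pdx1cKO mice 1, 2 and 3. The 3 Pdx1cKO values lay closely together and below both controls, a log2 fold change of -0.49 (SE, the standard error, 0.104, limma adjusted p = 0.300). The unadjusted p was under 0.05, and stayed there in 13 of 14 alternatives but not with the replicate block. Its partner Srprb, the membrane-anchored beta subunit, had 328 and 328 in control mice against 317, 328 and 331 in Pdx1cKO, with groups that overlapped and a log2 fold change of -0.011 (95% confidence interval -0.078 to 0.055).

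Sec61b, the small beta subunit of the Sec61 channel, was at 221 and 204 in control mice against 151, 169 and 172 in Pdx1cKO. All 3 Pdx1cKO mice lay below both controls, and the log2 fold change was -0.37 (SE 0.0800, limma adjusted p = 0.301). Its 3 probe sets each had the same direction, at -0.47, -0.31 and -0.34. The unadjusted p was under 0.05 in 11 of 14 alternatives, but not without control 1, with array weights or with the replicate block. Sec61a1, the pore-forming subunit, went with none of this: it had 1264 and 1142 in control mice against 1166, 1260 and 1204 in Pdx1cKO, a log2 fold change of 0.01 with an interval of -0.17 to 0.19. Sec62 and Sec63, which assist the channel with proteins that arrive after translation and with the chaperone BiP, had log2 fold changes of -0.053 and -0.16, and both overlapped or tied between groups.

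The translocon-associated protein (TRAP) complex, 4 subunits beside the channel that help certain signal peptides to open it, did not move as a unit. Ssr1, Ssr2 and Ssr3 had log2 fold changes of 0.08, 0.03 and 0.16. Ssr4, the delta subunit, stood apart at -0.49 (limma adjusted p = 0.515), with 1548 and 954 in control mice against 784, 913 and 913 in Pdx1cKO. Its Pdx1cKO values lay below both controls, but control 2 was much nearer to them than to control 1, a gap of 0.70 log2 between the controls. Ssr4 is X-linked, and the part of sex in its values was not tested. Of the 5 signal recognition particle genes on the list, Srp19 was lower, with 67.9 and 66.6 in control mice against 61.2, 58.1 and 62.9 in Pdx1cKO. The log2 fold change was -0.15 (limma adjusted p = 0.385). Its unadjusted p was under 0.05 in 9 of the 13 alternatives that measured it, but not with array weights or without control 1, control 2 or Pdx1cKO mouse 1. Srp9, Srp68 and Srp72 had -0.10, -0.14 and -0.13, and Srp14 had 0.03.

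**Figure D3:**
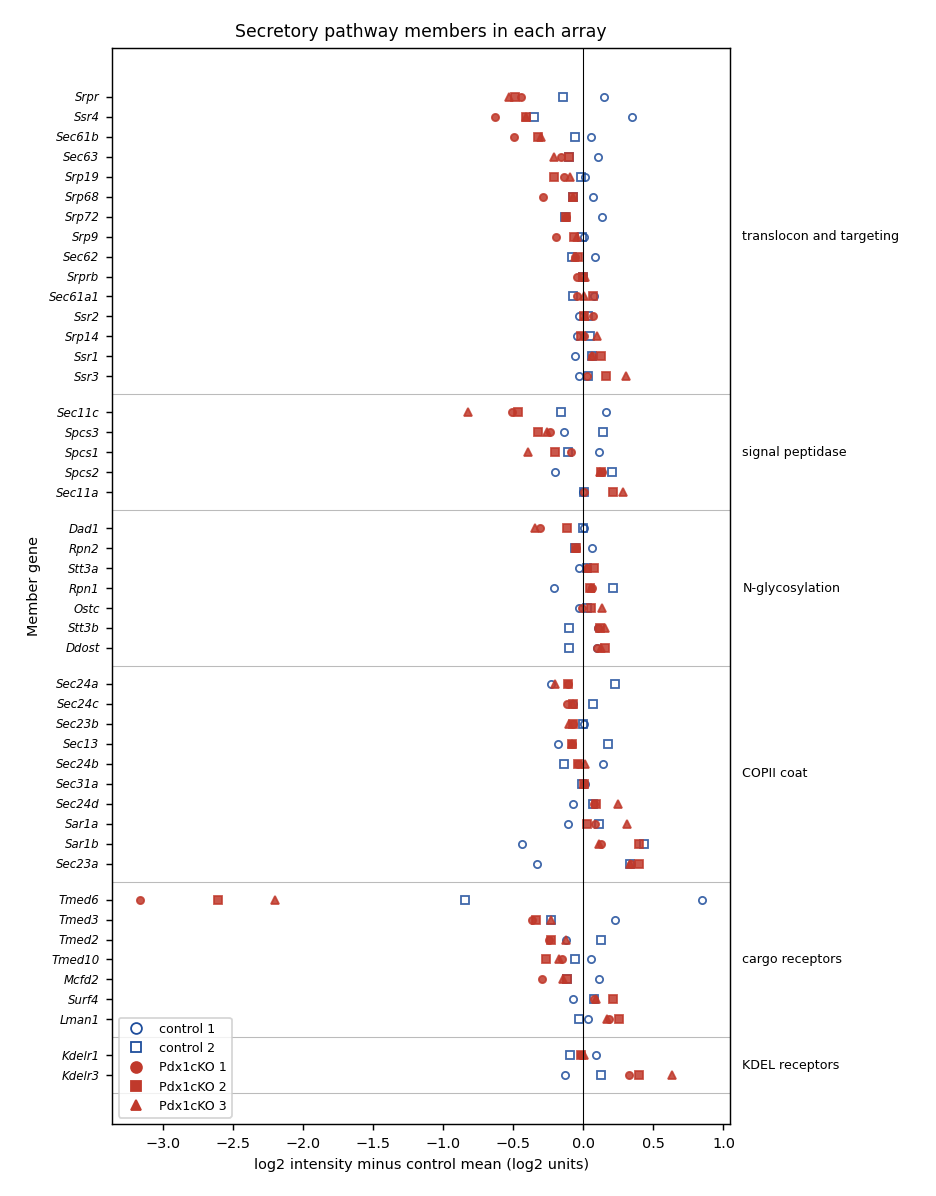
Log2 intensity relative to the control mean of each of the 46 measured members in the 5 arrays (open blue, control; filled red, Pdx1cKO; the symbol gives the mouse number), ordered by fold change within each group. Tmed6 lies far left of all others, at -3.16, -2.61 and -2.20 in the Pdx1cKO mice, and the controls are farther apart for Sar1b, Sec23a and Ssr4 than for most members.

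Signal peptidase had its own split between catalytic subunits. Sec11c and Sec11a are paralogs that each carry the protease activity, in separate forms of the complex. Sec11c was at 138 and 111 in control mice against 86.6, 89.2 and 69.9 in Pdx1cKO, so that all 3 Pdx1cKO mice lay below both controls. The log2 fold change was -0.60 (SE 0.168, interval -1.08 to -0.12, limma adjusted p = 0.385). Sec11a had 387 and 390 in control mice against 391, 449 and 472 in Pdx1cKO, above both controls in each mouse though by very little in mouse 1, with a log2 fold change of 0.17 (limma adjusted p = 0.515). The 2 paralogs thus lay on opposite sides of their controls, and the difference between them was not tested. The unadjusted p of Sec11c was under 0.05 in 9 of 14 alternatives, but not without control 1, without Pdx1cKO mouse 1 or 2, with array weights or with the replicate block.

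The accessory subunits of signal peptidase were mixed. Spcs3, which the complex needs to cleave at all, was at 238 and 289 in control mice against 223, 209 and 219 in Pdx1cKO, below both controls, with a log2 fold change of -0.27 (limma adjusted p = 0.512). Spcs1 and Spcs2, which flank the catalytic core, had -0.23 and 0.13, and their groups overlapped. Spcs2 shows how far the controls set the sign: with 391 and 518 in control mice against 495, 491 and 489 in Pdx1cKO, leaving out control 2 gave a log2 fold change of 0.33 and leaving out control 1 gave -0.077.

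The N-glycosylation group had a median log2 fold change of 0.055, with 5 of its 7 genes above 0. Oligosaccharyltransferase transfers sugar chains to asparagines, with Stt3a as the catalytic subunit that works beside the channel and Stt3b as the one that acts on sites missed there. Stt3a had 1268 and 1318 in control mice against 1318, 1362 and 1318 in Pdx1cKO, a log2 fold change of 0.04 with an interval of -0.037 to 0.12. Stt3b had 753 and 653 in control mice against 753, 762 and 780 in Pdx1cKO, a log2 fold change of 0.13. Neither had an unadjusted p under 0.05, and 1 control value recurred in Pdx1cKO in each. Rpn1, Rpn2, Ddost and Ostc, which hold the complex together and link it to the ribosome or the channel, had log2 fold changes from -0.051 to 0.13. Dad1, a small subunit first known for its link to cell death, was the exception, with 1632 and 1621 in control mice against 1313, 1499 and 1278 in Pdx1cKO. All Pdx1cKO values were lower than the closely matched controls, at a log2 fold change of -0.26 (SE 0.0835, limma adjusted p = 0.448). Its unadjusted p was under 0.05, and stayed there in 6 of 14 alternatives. The call was lost with quantile normalization, the methods' t-test, array weights and the replicate block. It was also lost without either control and without Pdx1cKO mouse 1 or 3.

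**Figure D4:**
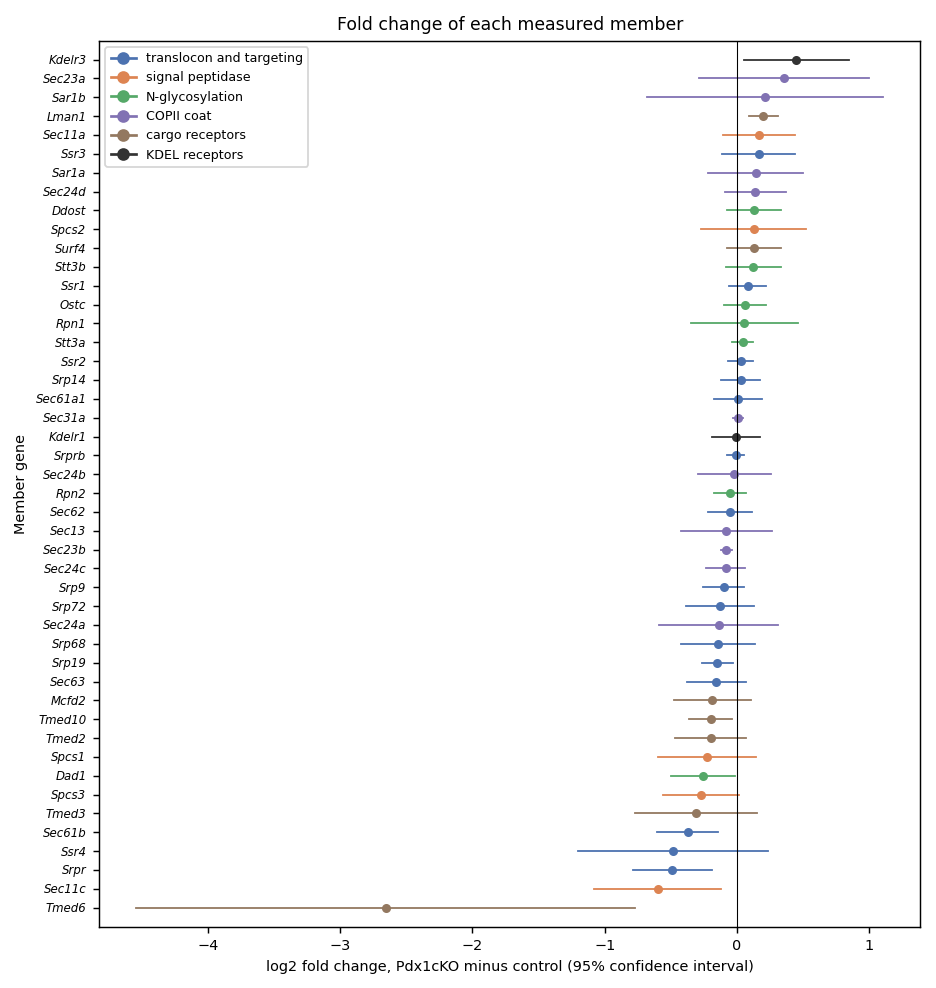
Log2 fold change, Pdx1cKO minus control, of the 46 measured members (points) with limma's 95% confidence interval (lines), coloured by group. Tmed6 lies lowest, at -2.66, and Kdelr3 highest, at 0.45, and the intervals of 36 of the 46 members include 0.

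Among COPII genes, the inner-coat paralogs Sec23a and Sec23b lay on opposite sides of the controls. SEC23 joins SEC24 to form the inner coat, SEC13 and SEC31 form the outer cage, and the GTPase SAR1 starts assembly. Sec23b, the paralog whose loss in mice destroys the pancreas around birth, had 425 and 423 in control mice against 403, 403 and 395 in Pdx1cKO. The difference was small against a smaller spread, a log2 fold change of -0.082 (SE 0.0146, limma adjusted p = 0.261). That adjusted p was the lowest among the members, and the unadjusted p was 0.05 or more with array weights and with the replicate block. Sec23a, the paralog needed for collagen export from fibroblasts and bone-forming cells, had 274 and 433 in control mice against 435, 453 and 433 in Pdx1cKO. Its Pdx1cKO values lay above both controls but next to control 2, with a log2 fold change of 0.35 (SE 0.224, limma adjusted p = 0.515). Without control 2 the log2 fold change was 0.685, and without control 1 it was 0.024. Beside it, the mesenchyme list had a median of 0.33 over its 8 genes, with 4 above both controls in every Pdx1cKO mouse. Between the controls the list ran the other way from Sec23a, with a median intensity of 2534 in control 1 and 1681 in control 2. The part of mesenchyme in the Sec23a value was not tested.

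The cargo-selecting SEC24 subunits and the other coat genes stayed near their controls. Sec24d was at 321 and 354 in control mice against 356, 359 and 401 in Pdx1cKO, above both controls, at a log2 fold change of 0.14 (limma adjusted p = 0.515). Sec24a, Sec24b and Sec24c had -0.14, -0.019 and -0.086, with groups that overlapped. Sec31a was nearly level, with 744 and 732 in control mice against 742 in each Pdx1cKO mouse, a log2 fold change of 0.008. Sec13, its partner in the cage, had 210 and 269 in control mice against 225 in each Pdx1cKO mouse. Identical values in all 3 Pdx1cKO mice were found in 4 members and in 15.7% of all genes, and they lower the spread that limma reads in such genes. Sar1a had 0.14 and Sar1b 0.21 on the log2 fold change scale. The Sar1b controls stood 0.87 log2 apart, at 348 and 636, and the Pdx1cKO values of 513, 618 and 509 lay between them.

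Tmed6, the member with the lowest fold change, is a p24 family protein, a class that cycles between ER and Golgi with cargo. Its intensity was 907 in control 1, 280 in control 2 and 56.4, 82.7 and 110 in Pdx1cKO mice 1, 2 and 3. Both controls lay above every Pdx1cKO mouse, but the controls themselves were 1.69 log2 apart. The log2 fold change was -2.66 (SE 0.655, interval -4.54 to -0.77, limma adjusted p = 0.346), or 6.31-fold lower. Without control 1 it was -1.81 and without control 2 it was -3.50. The unadjusted p was under 0.05 in 9 of 14 alternatives, but not without control 1, without Pdx1cKO mouse 1 or 2, with array weights or with the replicate block. The order of the 5 arrays, with control 1 highest and Pdx1cKO mouse 1 lowest, was the order of the enzyme medians given above. Bhlha15, the acinar transcription factor that scales up secretory organelles, had 305 and 120 in control mice against 61.6, 53.6 and 46.4 in Pdx1cKO, a log2 fold change of -1.84 (limma adjusted p = 0.357). Like Tmed6 it was highest in control 1, but its order within the Pdx1cKO mice was the reverse.

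Of the other p24 proteins on the list, Tmed10 was lower at an unadjusted limma p under 0.05, and Tmed2 and Tmed3 were not. Tmed10 had 539 and 498 in control mice against 466, 431 and 459 in Pdx1cKO, below both controls, with a log2 fold change of -0.20 (SE 0.0566, limma adjusted p = 0.396). Its unadjusted p was 0.05 or more with array weights, without control 1 and without any of the Pdx1cKO mice. Tmed2, its partner in the p24 complex, had -0.20 (limma adjusted p = 0.515) with all 3 of its probe sets negative, and Tmed3 had -0.31 with a value shared between control 2 and Pdx1cKO mouse 3. The p24 proteins of the list thus had negative values throughout, from -2.66 to -0.20. Among pathway genes outside the list, Tmed7 and Tmed9 were at 0.359 and 0.355, so the sign did not hold for the whole family. Tmed5 was at 0.174, with its Pdx1cKO values between its controls, and Tmed4 was at -0.087.

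Lman1 and Mcfd2 form the receptor that carries coagulation factors V and VIII out of the ER. Lman1 had 626 and 599 in control mice against 694, 730 and 687 in Pdx1cKO, above both controls in every mouse. Its log2 fold change was 0.20 (SE 0.0391, limma adjusted p = 0.283). The unadjusted p was under 0.05 and stayed there in 11 of 14 alternatives, but not without control 2, with array weights or with the replicate block. Mcfd2 had 224 and 191 in control mice against 168, 191 and 188 in Pdx1cKO, a log2 fold change of -0.19 with control 2 tied to Pdx1cKO mouse 2. Lman1 was highest in Pdx1cKO mouse 2 and lowest of the 3 in mouse 3. The liver, granulocyte and erythroid lists all had this order, and the part of these tissues in the Lman1 value was not tested. Surf4, a receptor for many soluble cargoes, had a log2 fold change of 0.13 with a tie between control 2 and Pdx1cKO mouse 1.

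Kdelr3 had the highest log2 fold change of the list. KDEL receptors bind chaperones that carry a C-terminal retrieval signal and return them to the ER. Kdelr3 was at 313 and 373 in control mice against 427, 450 and 529 in Pdx1cKO. All 3 Pdx1cKO mice lay above both controls, with a log2 fold change of 0.45 (SE 0.138, interval 0.053 to 0.85, limma adjusted p = 0.426). The unadjusted p was under 0.05 in 6 of 14 alternatives, and in none of those that left out a mouse. Kdelr1 had 524 and 462 in control mice against 487, 486 and 495 in Pdx1cKO, between the controls, with a log2 fold change of -0.008 and an interval of -0.19 to 0.17.

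**Figure D5:**
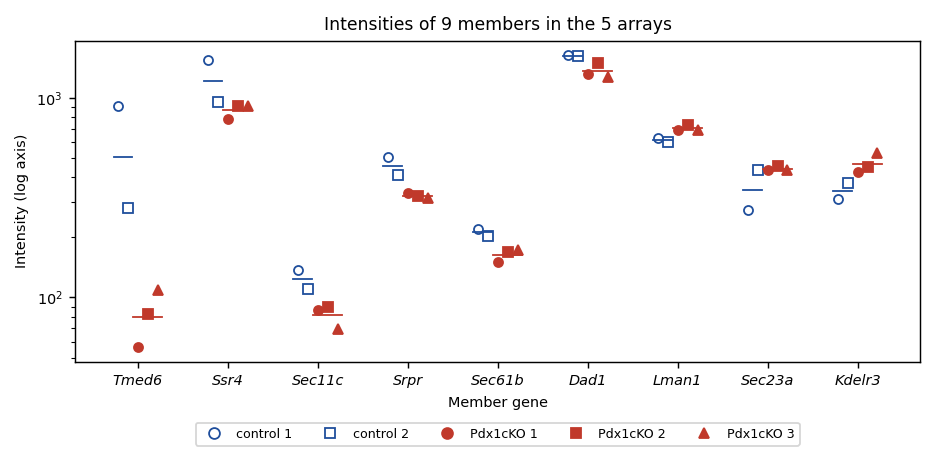
Intensity on a log axis of 9 members in the 5 arrays (open blue, control; filled red, Pdx1cKO; the symbol gives the mouse number; lines, geometric means). Tmed6 lies at 907 and 280 in the controls and between 56.4 and 110 in Pdx1cKO, Srpr and Sec61b have no overlap between groups, and for Sec23a and Ssr4 control 2 lies beside the Pdx1cKO mice.

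Taking the 4 groups named first side by side, the median log2 fold changes were -0.10 for translocon and targeting, -0.23 for signal peptidase, 0.055 for N-glycosylation and -0.005 for the COPII coat, with -0.20 for cargo receptors. The per-mouse medians of translocon and targeting were 0.06 and -0.06 in control mice against -0.13, -0.07 and -0.06 in Pdx1cKO. For signal peptidase they were -0.004 and 0.004 in control mice against -0.09, -0.20 and -0.26 in Pdx1cKO. The Pdx1cKO medians of N-glycosylation were 0.03, 0.06 and 0.06 and those of the coat were -0.014, -0.014 and 0.01, while the coat medians of the controls were -0.09 and 0.09. Signal peptidase and cargo receptors had the lowest medians of fold change, and the Pdx1cKO medians of the coat lay between its controls. Differences between groups of genes were not tested. Leaving out control 1 brought translocon and targeting to -0.018 and cargo receptors to -0.081, and leaving out control 2 brought the coat to 0.09 and signal peptidase to -0.13.

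The rest of the pathway, from lists of genes that are not members, was also centred near 0. Of 15 other translocation, glycosylation and chaperone genes, 1 (6.67%) was lower at an unadjusted limma p under 0.05 and 0 were higher. The shares of all genes were 5.04% lower and 5.29% higher. The lower gene was Hyou1, an ER chaperone, at -0.35, and the median log2 fold change of the 15 was -0.10. Of 37 other genes of ER export and Golgi return, 3 (8.11%) were lower and 3 (8.11%) higher, beside the same shares of all genes. Their median was 0.02. The lower ones were Bet1, a SNARE of ER to Golgi vesicles, at -0.21, Preb, the exchange factor that activates SAR1, at -0.29, and Yif1a at -0.24. The higher ones were Tmed7 at 0.36, Copa, the alpha subunit of the COPI coat, at 0.28 and Ergic1 at 0.09. Of 10 transcription factors of the secretory pathway, 2 (20%) were lower and 0 higher, beside the same shares of all genes. The lower ones were Bhlha15 and Atf4, at -1.84 and -0.19. Xbp1, which drives ER expansion in secretory cells, had 2733 in control 1, 1592 in control 2 and 1612, 1612 and 1545 in Pdx1cKO, so that control 1 alone stood out and the log2 fold change of -0.39 had an interval of -1.15 to 0.37. Creb3l1 and Creb3l2, CREB3 family factors, had 0.05 and 0.09.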

How the data were processed

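The authors hybridised RNA to Mouse Gene 1.0 ST arrays and analysed them with GeneSpring GX. The deposited table holds linear intensities of 28853 probe sets, already normalized between arrays (medians 61.0 to 61.9). How background, normalization and probe set summary were handled is not given in the sources used here, and no detection calls were used. Exact ties between samples occur in 67.7% of probe sets.

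Log2 was taken with no pseudocount. Probe sets with 1 symbol in the platform annotation (21789) were averaged into 19938 genes. Groups were compared in R 4.3.3 with limma 3.58.1 (lmFit, eBayes, Benjamini-Hochberg over all genes, threshold 0.05). The step was also run on simulated data with normal noise and the same spread in both groups. Those data held no exact ties, so they cannot show how ties or unequal spreads affect the test. Medians and counts over lists are descriptions with no test. List symbols were updated through RefSeq gene IDs. Promoters came from the RefSeq table of GRCm38.p6 (32851 windows of 300 bases), read with Python 3.11.15 and pandas 2.3.3.

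The members and gene lists were chosen with earlier results of these data known. All 48 members could be named, with full statistics for up to 3 per group by p and for paralogs, and the listed pathway genes with the smallest p. Alternatives covered scaling (median or quantile), 2 filters on dim genes, the brightest probe set of a gene, array weights, a trended robust eBayes, the methods' t-test, a replicate block and the omission of each sample in turn. The array number limits the precision.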

Additional observations from a re-analysis of the deposited data

How the results depend on the processing

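The count above both controls was added after seeing the data. The count of members lower at an unadjusted p was 8 and fell to 1 with array weights and to 2 with the replicate block, and it ran from 4 to 14 over the left-out samples. The count of higher members was 2, against 1 by the methods' t-test, 0 with array weights, 1 with the replicate block and 1 to 7 over the left-out samples. The share of all genes called higher was 5.29%, against 3.68% by the t-test, 1.21% with array weights and 4.31% with the replicate block. It was 3.57%, 4.08% and 4.35% without Pdx1cKO mouse 1, 2 and 3. The 14 lower members came without control 2 and the 7 higher members without control 1. Each of these fits rests on 1 control, so its count cannot be set against those of all samples. The labels name no shared litter, and deviations of same-numbered samples from their group means correlated at 0.0325 and -0.00297. With 2 controls, whose deviations mirror each other, these correlations cannot tell whether the replicate numbers pair the mice. Members with an adjusted p under 0.05 numbered 0 to 8 over the left-out samples. There were 5 without control 1, when 17% of all genes passed, and 8 without control 2, when 15.4% did, with the lone control then assumed to vary like the Pdx1cKO mice. Rpn1 and Sec13 passed in both, with opposite signs. No member passed by the methods' t-test after adjustment.

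Members below both controls numbered 20 after quantile normalization and 13 to 24 over the left-out samples. Those above both numbered 2 with median scaling, 3 with quantile normalization and 5 to 18 over the left-out samples. The shares of all genes were not counted for these settings. Groups with a sample left out are easier to separate, so these counts cannot be set against the 12 and 5 of all samples. The median log2 fold change of the members was -0.075 with quantile normalization, -0.019 among genes above the median level, which leaves out Srp19, and -0.043 to -0.030 over the left-out samples. That of N-glycosylation was 0.033 with quantile normalization and 0.016 to 0.058 over the left-out samples, and that of signal peptidase was -0.144 with the replicate block and -0.294 to -0.119. Over the left-out samples translocon and targeting ran from -0.136 to -0.018, the COPII coat from -0.030 to 0.092, cargo receptors from -0.255 to -0.081 and KDEL receptors from 0.172 to 0.254.

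Signs turned only for members near 0 or with controls far apart. Sec31a was at 0 with median scaling and at -0.016 with quantile normalization, and Srp14 was at -0.003 with quantile normalization and at -0.005 with the replicate block. Over the left-out samples the ranges that cross 0 were -0.064 to 0.083 for Sec61a1, -0.136 to 0.030 for Sec62, -0.003 to 0.059 for Ssr2, -0.018 to 0.075 for Srp14, -0.257 to 0.007 for Srp72, -0.023 to 0.006 for Srprb, -0.077 to 0.332 for Spcs2, -0.154 to 0.264 for Rpn1, -0.113 to 0.011 for Rpn2, -0.258 to 0.096 for Sec13, -0.003 to 0.020 for Sec31a, -0.366 to 0.089 for Sec24a, -0.159 to 0.121 for Sec24b, -0.223 to 0.645 for Sar1b and -0.100 to 0.084 for Kdelr1. The other members kept their direction under all alternatives, and the causes of the shifts were not tested.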
